A study of Danio rerio with 36 samples.

Results

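Whole zebrafish larvae 48 h after removal of the caudal fin, kept in regular medium, were compared with whole uncut larvae in the same medium. The comparison uses 6 of the 36 libraries of the series, chosen by their labels as the 3 libraries of the 48 h group and the 3 of the uncut group. All larvae of both groups were wild type, and none received glucose. In the amputated group the fin was cut beyond the end of the spinal cord under tricaine, 14 days after the culture medium was set up at 6 h after fertilisation, and the larvae went back to the same medium until total RNA was taken. The sources used here do not state the age of the uncut larvae at sampling, or whether they were also anaesthetised, so amputation, anaesthesia and the passage of time cannot be told apart in any difference below. The labels do not say whether the 3 libraries of a group came from separate larvae, pools or extractions. The p-values rest on the spread within groups over all 36 libraries, which may be partly technical. Groups sampled 24 h after amputation in regular medium, and uncut and 48 h groups in 130 mM or 222 mM glucose, enter only where they show whether the 48 h state differs from them.

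Amputation of the zebrafish caudal fin is followed by wound closure by epidermis, an inflammatory phase with neutrophils and macrophages, formation of a blastema of dividing cells under the epidermis, and outgrowth. Fibroblast growth factor, Wnt and retinoic acid signals drive the blastema, and matrix metalloproteinases remodel the stump. In a whole larva the fin is a small part of the RNA, so a transcript made mainly in muscle, liver, pancreas, skin or eye is measured together with any response of the stump. In such bulk samples, fewer cells of a type and less RNA per cell cannot be told apart.

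Each of the 6 libraries held between 54015904 and 66880198 counts. Of 47 marker genes of organs and cell types, 41 reached 1 FPKM (a read-fragment count scaled by transcript length and library size) in all 6 libraries. The markers below that level in some library were the globin hbba1, a copy of mpeg1, lck of T cells, sp7 and bglap of osteoblasts, and pomca of the pituitary. Uncut replicate 3 stood apart from the other uncut libraries. Its mean correlation with them in log2 CPM (counts scaled to a common library size) was 0.9366, against 0.986 between the other uncut libraries, while the pairs of 48 h libraries gave 0.9857 to 0.9872. Results of the gene lists are therefore given with and without uncut replicate 3. The values of each library are printed for many genes, and it is said for some where that library lay near the 48 h level. What made it differ was not tested.

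Tests were run with edgeR's quasi-likelihood method on the deposited counts of 20120 genes, with all 36 libraries sharing the estimate of spread. A gene rose or fell where its Benjamini-Hochberg adjusted p was under 0.05, and changes are log2 of 48 h over uncut ± standard error (SE), with n = 3 libraries a group. By this rule 2925 genes differed (14.5%), of which 1426 were higher (7.09%) and 1499 lower (7.45%) at 48 h. Without uncut replicate 3, 2748 were higher (13.7%) and 2972 lower (14.8%), and 2699 of the 2925 genes were called again. Leaving out another library lowered the count, to 1176 without uncut replicate 1, 976 without uncut replicate 2, and 1721, 1774 and 1368 without 48 h replicates 1, 2 and 3. In a fit of the 6 libraries alone, 468 were higher and 176 lower, so that 72.7% of the calls were higher, against 48.8% in the fit of all libraries. The call held without each of the 6 libraries in turn for 447 higher genes (2.22%) and 320 lower genes (1.59%). The CPM values of the groups did not overlap for 5984 genes (29.7%). The median change over all genes was -0.01, and the gene lists below are read against these values. The lists were chosen with earlier results of these data known. A list share above that of all genes is therefore not independent support.

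**Figure D1:**
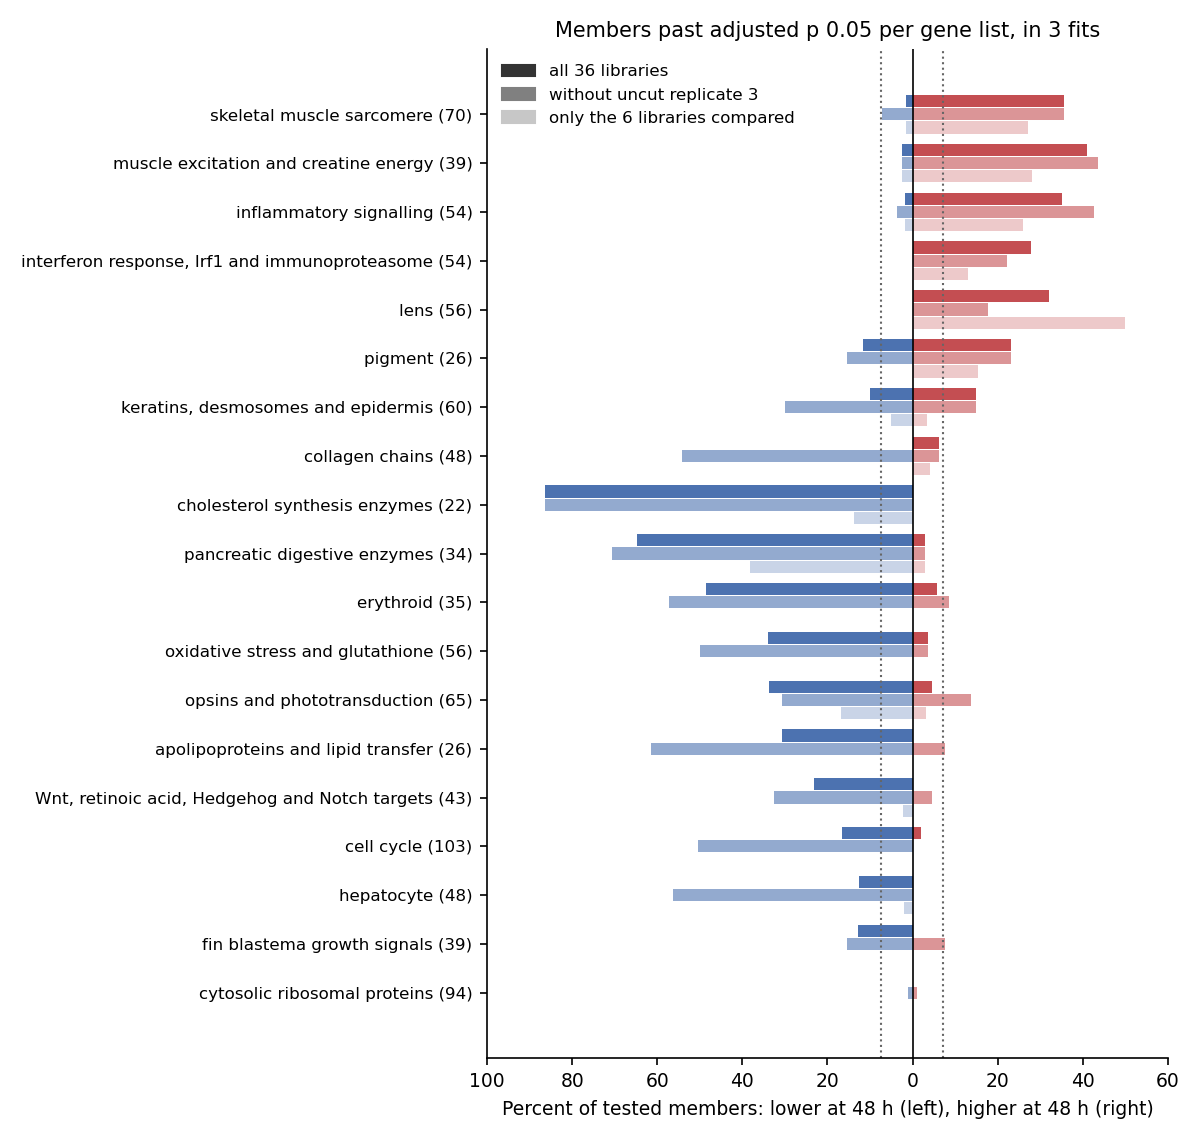
Percent of the tested members of 19 gene lists (number tested in brackets) that were lower (left, blue) or higher (right, red) at 48 h than in uncut larvae, in the fit of all 36 libraries, the fit without uncut replicate 3 and the fit of the 6 libraries alone (dark to pale); dotted lines mark 7.45% lower and 7.09% higher, the shares over all genes in the fit of all libraries. The muscle, inflammatory, interferon and lens lists lay beyond the right dotted line in all 3 fits, while the erythroid, oxidative stress, apolipoprotein and cell cycle lists had no call in the fit of 6 libraries. The lines do not give the shares of the paler fits. Over all genes these were 13.7% higher and 14.8% lower without uncut replicate 3. In the fit of 6 libraries 468 of 20120 genes were higher and 176 lower.

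Fast skeletal muscle genes rose. Of 70 tested genes of the sarcomere, the contractile unit of striated muscle, 25 rose, 1 fell and 44 did not pass (median 0.46). Without uncut replicate 3, 25 rose and 5 fell (median 0.31), and in the fit of the 6 libraries 19 rose and 1 fell. The list includes myosin heavy chains, the motors of the thick filament. The fast chain myhz1.1 stood at 6634, 7492 and 5684 CPM in uncut replicates 1 to 3 and at 17606, 19172 and 17652 CPM in 48 h replicates 1 to 3 (log2 1.46 ± 0.18, adjusted p = 8e-06). Its level per length went from 951 ± 103 to 2629.9 ± 109 FPKM (SD, n = 3). Every 48 h library lay above every uncut library, and uncut replicate 3 was the lowest of the 6. The same order held for myha (chr5:32246872-32257316, build GRCz11), which stood at 93.7, 98.4 and 78.3 CPM uncut and 268, 329.5 and 268 CPM at 48 h (log2 1.68 ± 0.24, adjusted p = 3.9e-05). Further fast chains rose by 1.52 ± 0.22 (myhc4), 1.49 ± 0.22 (myhz1.3), 1.3 ± 0.22 (myhz1.2) and 1.17 ± 0.17 (myhz2), each without overlap between the groups. These myosins are near-identical neighbours, so the authors' counting could have split their reads. The slow chains smyhc1, smyhc2 and smyhc3, named after their values were seen, rose by 0.63, 0.59 and 0.59.

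The giant proteins that set sarcomere length rose with the myosins. Nebulin (neb), which runs along the thin filament, stood at 433, 398 and 394 CPM uncut and 1104, 1226 and 989 CPM at 48 h (log2 1.44 ± 0.19, adjusted p = 1.4e-05). The 2 titin genes, both named ttn, rose by 1.56 ± 0.22 (ENSDARG00000000563) and 1.53 ± 0.23 (ENSDARG00000028213). Neither gene overlapped between groups. The scaffold gene nrap, active in myofibril assembly, stood at 50.2, 62.5 and 108 CPM uncut and 216, 216 and 237 CPM at 48 h (log2 1.6 ± 0.23, adjusted p = 3.7e-05), and uncut replicate 3 was the uncut library nearest to the 48 h values. No troponin or tropomyosin of the list passed, with changes between -0.45 (tpm2, adjusted p = 0.08) and 0.44 (tnnt2a, adjusted p = 0.087). The single member that fell was filamin flncb (-0.55), named after its values were seen.

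Calcium release genes followed the contractile genes. Of 39 tested genes of muscle excitation and creatine energy transfer, 16 rose, 1 fell and 22 did not pass (median 0.34). Leaving out uncut replicate 3, 17 rose and 1 fell (median 0.31), and in the fit of the 6 libraries 11 rose and 1 fell. The ryanodine receptor ryr3, a calcium release channel, stood at 295, 257 and 344 CPM uncut and 744, 864 and 700 CPM at 48 h (log2 1.36 ± 0.16, adjusted p = 3.6e-06). Its paralogue ryr1b rose by 1.09 ± 0.16. The calcium pumps of the sarcoplasmic reticulum rose by 0.93 ± 0.15 (atp2a1l) and 0.72 ± 0.15 (atp2a1), and the junctophilins, which hold release sites together, by 0.84 ± 0.18 (jph2) and 0.77 ± 0.16 (jph1b). None of these genes overlapped between groups. The mitochondrial creatine kinase ckmt2a went the other way, from 64.0, 64.4 and 31.7 CPM uncut to 20.7, 20.8 and 19.4 CPM at 48 h (log2 -1.40 ± 0.19, adjusted p = 2.4e-05), with uncut replicate 3 between the other libraries and the 48 h values.

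Genes of muscle upkeep moved in both directions, beside 7.09% higher and 7.45% lower over all genes. Without uncut replicate 3 those shares were 13.7% and 14.8%. The fit of the 6 libraries had 468 of 20120 genes higher and 176 lower. Of 35 tested, 6 rose, 5 fell and 24 did not pass (median 0.12), and without uncut replicate 3, 7 rose and 8 fell (median 0.05), and in the fit of the 6 libraries 1 rose and 1 fell, and the fewest calls with any 1 library left out were 2, without uncut replicate 1. The myosin methyltransferase smyd1a rose from 137, 113 and 127 CPM to 221, 237 and 198 CPM (log2 0.80 ± 0.14, adjusted p = 0.00047). The myosin chaperone unc45b stood at 64.7, 112 and 7.80 CPM uncut and 8.77, 6.46 and 5.76 CPM at 48 h (log2 -3.14 ± 0.68, adjusted p = 0.0035), and its partner hsp90aa1.1 at 144, 274 and 38.9 and 36.7, 24.4 and 27.3 CPM (log2 -2.37 ± 0.73, adjusted p = 0.03). For both chaperones uncut replicates 1 and 2 were high and uncut replicate 3 lay at or near the 48 h level, and neither fell in the fit of the 6 libraries (adjusted p = 0.087 and 0.086).

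**Figure D2:**
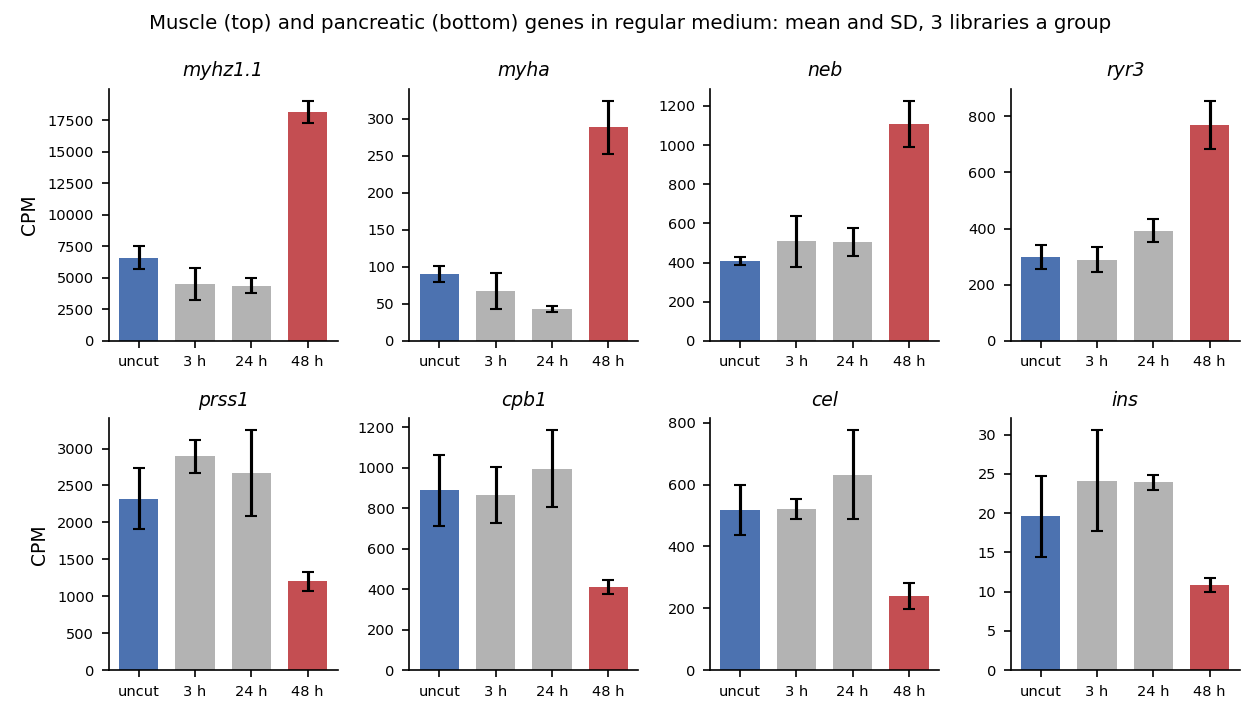
Mean CPM (bars, from 0) with SD (lines, n = 3 libraries) of 4 muscle genes (top) and 4 pancreatic genes (bottom) in regular medium, uncut and 3, 24 and 48 h after amputation. The muscle genes were highest at 48 h, where myhz1.1 reached 18143 ± 891 CPM, and the pancreatic genes lowest, where prss1 fell to 1203 ± 129 CPM.

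Digestive enzymes of the exocrine pancreas fell. The acinar cells make trypsins, chymotrypsins, elastases, carboxypeptidases and lipases, which are among the most abundant transcripts of a feeding larva. Of 34 tested enzymes, 1 rose, 22 fell and 11 did not pass (median -0.94). With uncut replicate 3 left out, 1 rose and 24 fell (median -1.05), and in the fit of the 6 libraries 1 rose and 13 fell. The trypsinogen prss59.1 stood at 2108, 2608 and 1451 CPM uncut and 846, 799 and 889.5 CPM at 48 h (log2 -1.28 ± 0.19, adjusted p = 4.4e-05). Carboxypeptidase B (cpb1) stood at 909, 1052 and 703 CPM uncut and 401, 381 and 449 CPM at 48 h (log2 -1.11 ± 0.15, adjusted p = 1.9e-05). In both genes each 48 h library lay below each uncut library, and uncut replicate 3 was the lowest uncut library. Bile salt-activated lipase (cel) stood at 431, 527 and 593 CPM uncut and 217, 213 and 287 CPM at 48 h (log2 -1.11 ± 0.17, adjusted p = 6.6e-05), and here uncut replicate 3 was the highest of the 6. The elastase ela2l changed by -1.18 ± 0.20, the chymotrypsinogen ctrb1 changed by -1.01 ± 0.16, and the carboxypeptidase cpa5 by -1.04 ± 0.24, none with overlap. Trypsinogens and cel have near-identical copies, so reads may have been shared among them. The member that rose, zgc:112285 (1.68), was named after its values were seen.

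Islet genes gave few calls, beside 14.5% over all genes. Of 25 tested islet genes, 0 rose, 2 fell and 23 did not pass (median -0.18), and without uncut replicate 3, 1 rose and 4 fell (median -0.12), and in the fit of the 6 libraries 0 rose and 0 fell, and the fewest calls with any 1 library left out were 0, without uncut replicate 1. Insulin (ins) stood at 23.4, 21.7 and 13.7 CPM uncut and 9.95, 10.9 and 11.7 CPM at 48 h (log2 -0.86 ± 0.26, adjusted p = 0.027), and somatostatin (sst1) at 13.5, 12 and 7.33 and 6.66, 5.54 and 6.04 CPM (log2 -0.85 ± 0.27, adjusted p = 0.032). Neither overlapped, uncut replicate 3 was the lowest uncut library in both, and neither passed in the fit of the 6 libraries (adjusted p = 0.075 and 0.098).

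Inflammatory signalling genes rose. Of 54 tested genes of NF-kB, NADPH oxidase, Stat and related routes, 19 rose, 1 fell and 34 did not pass (median 0.31). Leaving out uncut replicate 3, 23 rose and 2 fell (median 0.39), and in the fit of the 6 libraries 14 rose and 1 fell. Inducible nitric oxide synthase nos2a (chr5:43782267-43796971) gave the largest rise of the genes named here that held without each library. It went from 1.28, 2.201 and 7.26 CPM uncut to 59.4, 52.2 and 42.6 CPM at 48 h (log2 3.84 ± 0.70, adjusted p = 0.0008). Uncut replicate 3 was the highest uncut library and still below every 48 h library, and without it the change was log2 4.89 ± 0.80, adjusted p = 9.1e-05. The NF-kB subunits nfkb1 and rela rose by 0.92 ± 0.15 and 0.89 ± 0.15, and the NF-kB inhibitors nfkbie and nfkbiz by 0.93 ± 0.14 and 0.77 ± 0.12. The NADPH oxidase nox1 and its organiser noxo1a, which make superoxide in epithelia, stood at 8.87, 10.28 and 10.6 and 3.38, 3.96 and 6.00 CPM uncut. At 48 h they stood at 23.5, 21.5 and 18.8 CPM (log2 1.1 ± 0.16, adjusted p = 3.7e-05) and 15.2, 12.3 and 13.1 CPM (log2 1.6 ± 0.23, adjusted p = 3.9e-05). The cytokine-activated factor stat3 rose from 46.2, 47.2 and 66.6 CPM to 99.4, 93.3 and 94.5 CPM (log2 0.84 ± 0.13, adjusted p = 9e-05). All of these passed in the fit of the 6 libraries, with adjusted p from 0.016 for nox1 to 0.044 for stat3. The one faller, the nuclear protein hmgb1a, stood at 306, 330.4 and 292 CPM uncut and 182, 172 and 173 CPM at 48 h (log2 -0.82 ± 0.14, adjusted p = 0.0002).

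**Figure D3:**
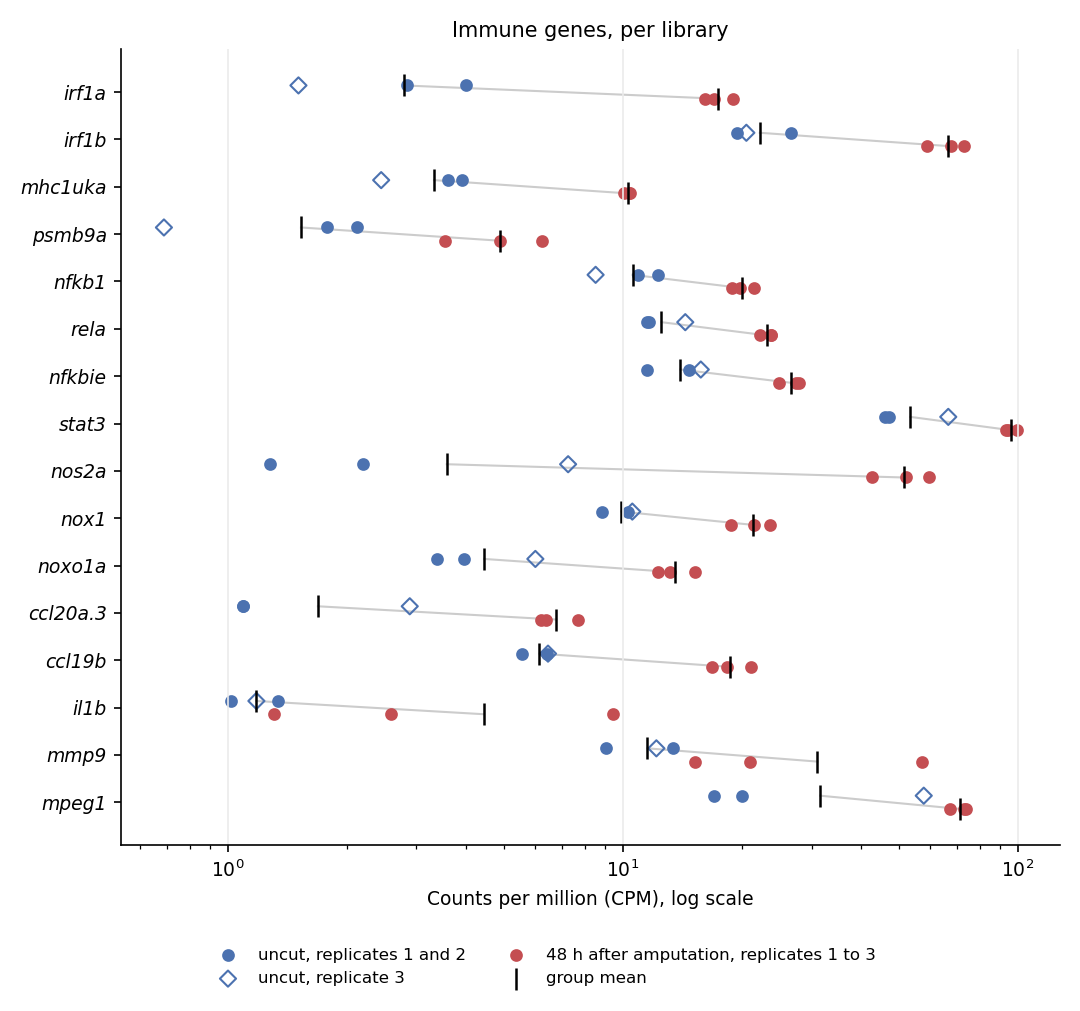
CPM (log scale) of 16 immune genes in each uncut library (blue, open diamond for replicate 3) and each 48 h library (red), with group means as black bars; mpeg1 is the copy ENSDARG00000043093. The groups were separate for every gene shown but il1b, and the 48 h libraries of il1b and mmp9 spread widely, with replicate 3 highest.

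Some genes of interferon regulatory factor 1 and antigen processing rose. Of 54 tested genes of this list, 15 rose, 0 fell and 39 did not pass (median 0.65), and without uncut replicate 3, 12 rose and 0 fell (median 0.57), and in the fit of the 6 libraries 7 rose and 0 fell. The factor irf1b stood at 26.6, 19.4 and 20.5 CPM uncut and 67.6, 72.8 and 58.9 CPM at 48 h (log2 1.58 ± 0.27, adjusted p = 0.00039), and its paralogue irf1a rose by 2.64 ± 0.50. The class I genes mhc1uka and mhc1zba rose by 1.63 ± 0.43 and 0.64 ± 0.13, the light chain b2ml by 0.61 ± 0.13 and the immunoproteasome subunit psmb9a by 1.67 ± 0.43. These genes did not overlap between groups, and uncut replicate 3 was the lowest of the 6 libraries for irf1a, mhc1uka, mhc1zba and psmb9a. MHC genes are copies of one another, so their counts are uncertain. Of 39 tested subunits of the constitutive proteasome, 1 rose, 0 fell and 38 did not pass (median 0.00).

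Cytokine transcripts were scarce, and they were called in a share near the 14.5% over all genes. Of 36 tested cytokines and chemokines, 5 rose, 1 fell and 30 did not pass (median 0.22); without uncut replicate 3, 7 rose and 2 fell (median 0.32), and in the fit of the 6 libraries 3 rose and 0 fell, and the fewest calls with any 1 library left out were 2, without uncut replicate 2. The chemokine ccl19b stood at 5.55, 6.42 and 6.46 CPM uncut and 16.8, 21.0 and 18.3 CPM at 48 h (log2 1.61 ± 0.26, adjusted p = 0.00017), and ccl20a.3 at 1.09, 1.09 and 2.88 and 7.71, 6.40 and 6.21 CPM (log2 2.0 ± 0.43, adjusted p = 0.0024). Neither overlapped. Interleukin 1 beta (il1b) stood at 1.34, 1.02 and 1.18 CPM uncut and 2.59, 1.31 and 9.44 CPM at 48 h (log2 1.91 ± 0.57, adjusted p = 0.026), and its groups overlapped because 48 h replicate 2 lay among the uncut libraries. Interleukin 8 (cxcl8a) and tnfb rose by 1.17 ± 0.40 and 1.1 ± 0.29 from levels near 1 CPM, and macrophage migration inhibitory factor (mif) fell (-0.96 ± 0.29).

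Neutrophil genes were called in a share near the 14.5% over all genes, and most macrophage genes did not pass. Of 29 tested neutrophil genes 3 rose, 1 fell and 25 did not pass (median 0.02), and of 41 macrophage and antigen presentation genes 7 rose, 2 fell and 32 did not pass (median 0.22). In the neutrophil list without uncut replicate 3, 5 rose and 4 fell (median -0.05), and in the fit of the 6 libraries 2 rose and 0 fell, and the fewest calls with any 1 library left out were 1, without uncut replicate 1. In the macrophage list without it, 7 rose and 4 fell (median 0.18), and in the fit of the 6 libraries 1 rose and 0 fell, and the fewest calls with any 1 library left out were 2, without uncut replicate 2. Myeloperoxidase (mpx), a neutrophil granule enzyme, stood at 29.7, 23.1 and 21.2 CPM uncut and 40.0, 55.2 and 48.1 CPM at 48 h and did not pass (log2 0.95 ± 0.34, adjusted p = 0.058). The macrophage gene mpeg1 (ENSDARG00000043093) stood at 19.96, 16.97 and 57.7 CPM uncut and 72.8, 67.3 and 73.9 CPM at 48 h (log2 1.18 ± 0.31, adjusted p = 0.012). Uncut replicate 3 was near the 48 h level, without it the change was log2 1.95 ± 0.25, adjusted p = 1.8e-06, and in the fit of the 6 libraries it did not pass (edgeR, adjusted p = 0.17). The copy ENSDARG00000055290 did not pass (log2 0.20 ± 0.19, adjusted p = 0.53). Cathepsin S (ctss2.2) rose from 38.06, 41.8 and 29.6 CPM to 77.5, 78.1 and 72.3 CPM (log2 1.06 ± 0.16, adjusted p = 5.5e-05), while granulin grn1 fell from 42.7, 36.2 and 19.03 CPM to 15.0, 14.3 and 13.6 CPM (log2 -1.19 ± 0.23, adjusted p = 0.00082). Of 17 tested lymphocyte genes none passed by edgeR, DESeq2 or limma, 2 had an unadjusted edgeR p under 0.05, and 2 fell without uncut replicate 3.

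Keratins and other skin genes split. Of 60 tested genes of keratins, junctions and epidermis, 9 rose, 6 fell and 45 did not pass (median -0.01), and without uncut replicate 3, 9 rose and 18 fell (median -0.14), and in the fit of the 6 libraries 2 rose and 3 fell, and the fewest calls with any 1 library left out were 9, without uncut replicate 2. The keratin krt96 (chr22:11775269-11779560) stood at 34.5, 36.4 and 48.2 CPM uncut and 145, 204 and 253 CPM at 48 h (log2 2.34 ± 0.42, adjusted p = 0.00069). The epidermal factor grhl3 stood at 22.8, 23.9 and 22.9 CPM uncut and 46.6, 45.5 and 41.1 CPM at 48 h (log2 0.93 ± 0.17, adjusted p = 0.00062). Both were higher in every 48 h library, and both passed in the fit of the 6 libraries. The type I keratin cyt1 fell from 1514, 1513 and 1511 CPM to 902, 986 and 812 CPM (log2 -0.75 ± 0.14, adjusted p = 0.00091), cyt1l changed by -0.63 ± 0.15 and krt4 by -0.68 ± 0.17, all lower at 48 h without overlap. Outside this list the epithelial factor ehf rose from 11.2, 11.9 and 7.72 CPM to 39.7, 38.3 and 34.1 CPM (log2 1.86 ± 0.23, adjusted p = 8e-06). Of 35 tested wound epidermis genes 2 rose, 2 fell and 31 did not pass (median -0.06), and without uncut replicate 3, 2 rose and 8 fell (median -0.10), and in the fit of the 6 libraries 0 rose and 0 fell, and the fewest calls with any 1 library left out were 1, without uncut replicate 2. Of the 4 called, krt18b and pxna rose by 0.47 and 0.45, and the integrins itgb1b and itga6b changed by -1.24 and -0.34. Over all genes 14.5% were called in either direction, so this list gave no excess of calls.

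The blastema readouts fgf20a, msx1b and lepb did not pass at 48 h in whole larvae. Of 39 tested growth signals and markers 0 rose, 5 fell and 34 did not pass (median 0.01), and without uncut replicate 3, 3 rose and 6 fell (median -0.00), and in the fit of the 6 libraries 0 rose and 0 fell, and the fewest calls with any 1 library left out were 2, without uncut replicate 1. The share called was near the 14.5% over all genes in either direction, where 7.45% were lower. The ligand fgf20a, required to start a blastema, stood at 1.93, 1.58 and 2.84 CPM uncut and 2.30, 2.69 and 2.24 CPM at 48 h (log2 0.19 ± 0.26, adjusted p = 0.69). The blastema factor msx1b stood at 3.72, 4.22 and 4.72 CPM uncut and 4.33, 3.90 and 4.28 CPM at 48 h (log2 -0.02 ± 0.24, adjusted p = 0.98). The groups overlapped in both. Leptin b (lepb), an early regeneration transcript, stood at 0, 0.127 and 0.164 CPM uncut and 0.0439, 0.142 and 1.31 CPM at 48 h and did not pass (adjusted p = 0.14); replicate 3 held most of it.

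The 5 members of the blastema list that fell were aldh1a2, cyp26a1, cyp26b1, and2 and hapln1a. Retinoic acid is made by aldh1a2, supplied with retinal by rdh10a and degraded by cyp26a1 and cyp26b1. The degrading enzyme cyp26a1 stood at 40.6, 32.3 and 4.26 CPM uncut and 4.90, 7.06 and 4.23 CPM at 48 h (log2 -2.25 ± 0.46, adjusted p = 0.0017), and the synthetic enzyme aldh1a2 at 52.3, 49.2 and 25.6 and 25.1, 24.5 and 18.6 CPM (log2 -0.90 ± 0.20, adjusted p = 0.003). Uncut replicate 3 lay at or just above the 48 h level for both, and neither fell in the fit of the 6 libraries (adjusted p = 0.13 and 0.12). By contrast rdh10a, of the list of signal targets below, at 44.8, 50.6 and 39.4 CPM uncut and 26.99, 30.8 and 24.6 CPM at 48 h (log2 -0.71 ± 0.17, adjusted p = 0.0052), also passed in that fit (adjusted p = 0.045). The whole list of Wnt, retinoic acid, Hedgehog and Notch targets had 43 tested members, of which 0 rose, 10 fell and 33 did not pass (median -0.16); without uncut replicate 3, 2 rose and 14 fell (median -0.18), and in the fit of the 6 libraries 0 rose and 1 fell, and the fewest calls with any 1 library left out were 4, without uncut replicate 1. Over all genes 7.45% were lower, and 14.8% without uncut replicate 3. The actinodin and2, a fibre protein of the fin fold, fell (-0.79 ± 0.23), and its paralogue and1 did not pass (log2 -0.27 ± 0.25, adjusted p = 0.52).

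Which matrix genes were called depended on the libraries used, as it did over all genes. In the fit of the 6 libraries 468 of 20120 genes were higher and 176 lower. Of 26 tested metalloproteinases and inhibitors, 4 rose, 1 fell and 21 did not pass (median -0.06), and leaving out uncut replicate 3, 3 rose and 6 fell (median -0.15), and in the fit of the 6 libraries 0 rose and 0 fell, and the fewest calls with any 1 library left out were 2, without uncut replicate 1. Gelatinase mmp9, made at wounds and by leukocytes, stood at 9.05, 13.3 and 12.1 CPM uncut and 20.9, 15.2 and 57.1 CPM at 48 h (log2 1.43 ± 0.42, adjusted p = 0.024). The groups did not overlap, but 48 h replicate 3 was far above its partners and the gene did not pass in the fit of the 6 libraries (adjusted p = 0.14). Collagenase mmp13a did not pass for either copy, ENSDARG00000012395 (adjusted p = 0.32) and ENSDARG00000114451 (adjusted p = 0.12). The inhibitor timp4 rose for both copies, ENSDARG00000100795 (1.1 ± 0.21) and ENSDARG00000111805 (1.31 ± 0.29), while mmp2 fell (-0.72 ± 0.19). The muscle laminin chain lama2 rose from 7.59, 7.69 and 9.75 CPM to 24.1, 27.8 and 29.1 CPM (log2 1.69 ± 0.23, adjusted p = 1.8e-05). Of 48 tested collagen chains 3 rose, 0 fell and 45 did not pass (median -0.35), the risers being col28a1b and both copies of col19a1. Without uncut replicate 3, 3 rose and 26 fell (median -0.65), and in the fit of the 6 libraries 2 rose and 0 fell; the main bone collagen col1a1a stood at 1835, 1435 and 385 CPM uncut and 849, 981 and 747 CPM at 48 h (log2 -0.50 ± 0.37, adjusted p = 0.39). The 48 h values of col1a1a lay between uncut replicate 3 and the other uncut libraries. Over the collagen list, the median difference in log2 CPM of uncut replicate 3 from uncut replicates 1 and 2 was -1.16. Over all genes, 14.8% fell without uncut replicate 3.

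Enzymes of cholesterol synthesis fell, and 8 of the 12 largest falls that held without each library were members of this list. Those 12 were picked among genes without a clone name, with groups that did not overlap and a mean of 5 FPKM. Separate groups were thus a condition for them and add no support. The pathway runs from acetyl-CoA through mevalonate and squalene to lanosterol and cholesterol, and its genes are switched together by the sterol-regulated factor Srebf2. Of 22 tested enzymes, 0 rose, 19 fell and 3 did not pass (median -2.10). With uncut replicate 3 left out, 0 rose and 19 fell (median -2.54), and in the fit of the 6 libraries 0 rose and 3 fell, the last being lss, cyp51 and ebp. In the middle of the pathway squalene epoxidase sqlea (chr16:43401005-43413293) stood at 37.8, 56.0 and 2.84 CPM uncut and 1.04, 1.48 and 1.22 CPM at 48 h (log2 -4.69 ± 0.80, adjusted p = 0.00044). At its start hmgcs1 stood at 185, 265 and 19.3 CPM uncut and 18.9, 17.8 and 14.5 CPM at 48 h (log2 -3.19 ± 0.58, adjusted p = 0.00082). At its end dhcr7 stood at 85.8, 88.3 and 36.03 CPM uncut and 31.1, 28.2 and 24.1 CPM at 48 h (log2 -1.33 ± 0.22, adjusted p = 0.00016). All 3 genes showed the same order, with uncut replicates 1 and 2 high, uncut replicate 3 next above the 48 h libraries, and no overlap. Without uncut replicate 3 the changes were log2 -5.23 ± 0.67, adjusted p = 4.4e-06 for sqlea, log2 -3.72 ± 0.44, adjusted p = 1.5e-06 for hmgcs1 and log2 -1.65 ± 0.17, adjusted p = 3.4e-08 for dhcr7. Relative to the uncut mean, the list's median log2 CPM was 0.59, 0.77 and -1.38 in the uncut libraries and -1.80, -1.87 and -2.07 at 48 h. The members that did not pass were pmvk (adjusted p = 0.21), hmgcrb (adjusted p = 0.74) and lbr (adjusted p = 0.33).

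**Figure D4:**
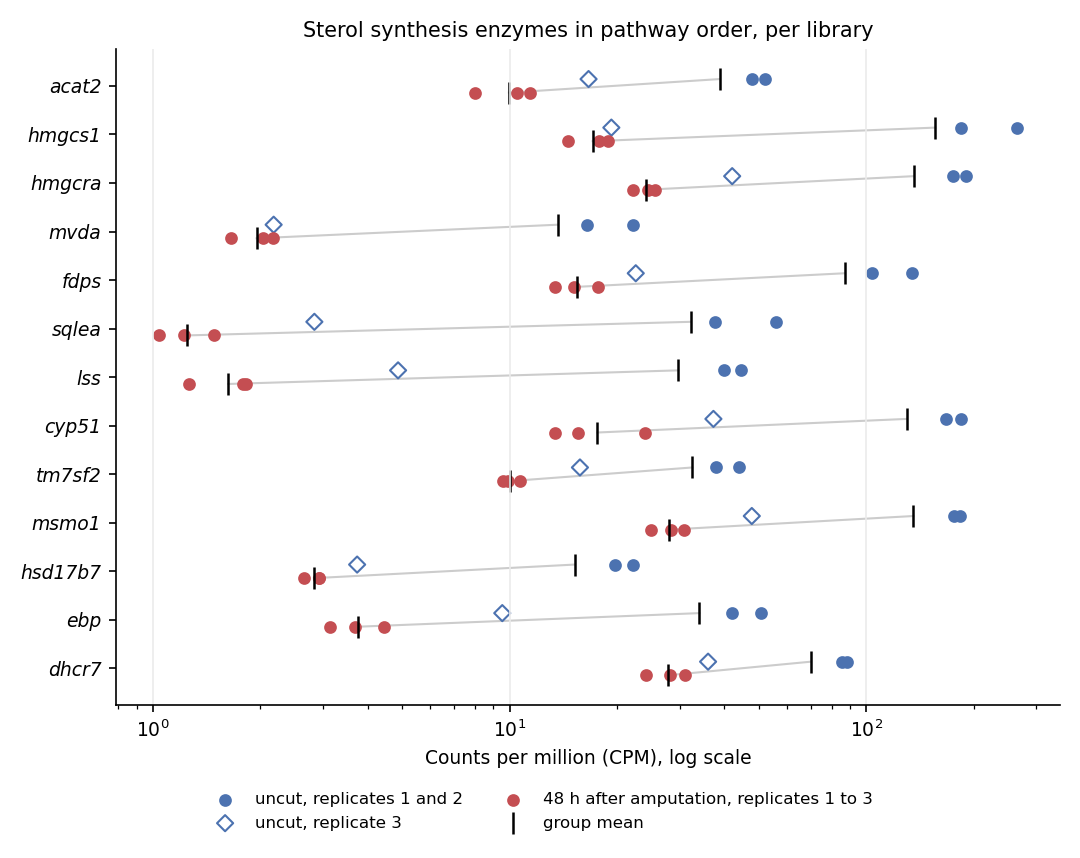
CPM (log scale) of 13 sterol synthesis enzymes, top to bottom in pathway order, in each uncut library (blue, open diamond for replicate 3) and each 48 h library (red), with group means as black bars. For every enzyme shown the 48 h libraries were lowest, and uncut replicate 3 lay nearer to them than to the other uncut libraries on the log scale.

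Genes that handle sterols outside synthesis were less uniform. Over all genes 7.09% were higher and 7.45% lower, and 13.7% and 14.8% without uncut replicate 3. Of 30 tested, 2 rose, 7 fell and 21 did not pass (median -0.08), and without uncut replicate 3, 6 rose and 12 fell (median -0.18), and in the fit of the 6 libraries 0 rose and 2 fell, and the fewest calls with any 1 library left out were 2, without uncut replicate 1. The sterol carrier stard4 stood at 17.1, 19.02 and 10.4 CPM uncut and 8.36, 6.13 and 6.27 CPM at 48 h (log2 -1.17 ± 0.16, adjusted p = 3.2e-05), and tmem97 at 21.7, 22.5 and 10.8 and 7.04, 5.70 and 5.72 CPM (log2 -1.57 ± 0.23, adjusted p = 4.3e-05). Both were lower in every 48 h library. The pathway's factor srebf2 changed by -0.48 ± 0.13 with overlap, its sensor insig1 by -0.55 ± 0.18 without overlap, and its escort scap rose by 0.47 ± 0.14. The LDL receptor ldlra did not pass (log2 -0.34 ± 0.26, adjusted p = 0.4), while ldlrb fell (-1.36 ± 0.37).

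Fatty acid synthesis fell in part, beside 7.45% of all genes lower, and 14.8% without uncut replicate 3. Of 27 tested genes of fatty acid and triglyceride synthesis, 1 rose, 10 fell and 16 did not pass (median -0.35); without uncut replicate 3, 2 rose and 14 fell (median -0.46), and in the fit of the 6 libraries 1 rose and 1 fell, and the fewest calls with any 1 library left out were 4, without uncut replicate 2. Diacylglycerol acyltransferase dgat1a, which makes triglyceride, stood at 38.7, 35.25 and 23.5 CPM uncut and 16.9, 16.7 and 14.1 CPM at 48 h (log2 -1.03 ± 0.17, adjusted p = 0.00022). Fatty acid synthase (fasn) stood at 302, 344 and 224 CPM uncut and 182, 165 and 186 CPM at 48 h (log2 -0.70 ± 0.16, adjusted p = 0.003). Neither overlapped, and uncut replicate 3 was the lowest uncut library. The acetyl-CoA carboxylase acacb, of mitochondria, rose (0.67 ± 0.18).

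By list medians, liver and gut genes lay low in uncut replicate 3. Its median difference in log2 CPM from uncut replicates 1 and 2 was -1.42 for hepatocyte and -0.77 for enterocyte genes. Of 48 tested hepatocyte genes 0 rose, 6 fell and 42 did not pass (median -0.48), and without uncut replicate 3, 0 rose and 27 fell (median -0.78), and in the fit of the 6 libraries 0 rose and 1 fell, and the fewest calls with any 1 library left out were 1, without uncut replicate 1. The share called was near the 14.5% over all genes in either direction, where 7.45% were lower. The hepatocyte list's median relative to the uncut mean was 0.63, 0.42 and -0.95 in the uncut libraries and -0.34, -0.23 and -0.49 at 48 h. Fatty acid-binding protein fabp10a stood at 413, 360.4 and 85.8 CPM uncut and 146, 157 and 106 CPM at 48 h (log2 -1.07 ± 0.36, adjusted p = 0.046), so that the 48 h libraries lay between uncut replicate 3 and the others. Apolipoproteins gave 8 falls of 26 tested, and without uncut replicate 3, 2 rose and 16 fell (median -0.91), and in the fit of the 6 libraries 0 rose and 0 fell, and the fewest calls with any 1 library left out were 2, without uncut replicate 1. In contrast, the antimicrobial peptide gene leap2 fell from 29.8, 22.6 and 6.52 CPM to 2.99, 3.19 and 1.603 CPM (log2 -2.92 ± 0.38, adjusted p = 1.8e-05) and passed in that fit (adjusted p = 0.045). Of 47 enterocyte genes 2 rose, 10 fell and 35 did not pass (median -0.29), and without uncut replicate 3, 2 rose and 18 fell (median -0.53), and in the fit of the 6 libraries 1 rose and 2 fell, and the fewest calls with any 1 library left out were 3, without uncut replicate 1. The chitinase chia.3 fell from 98.5, 119.7 and 117 CPM to 52.0, 38.0 and 38.0 CPM (log2 -1.39 ± 0.19, adjusted p = 2.4e-05) and the amino acid carrier slc6a19b rose from 82.2, 82.7 and 102 CPM to 142, 145 and 151 CPM (log2 0.71 ± 0.15, adjusted p = 0.0027), both without overlap. Unlike the median of their list, neither gene was low in uncut replicate 3.

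**Figure D5:**
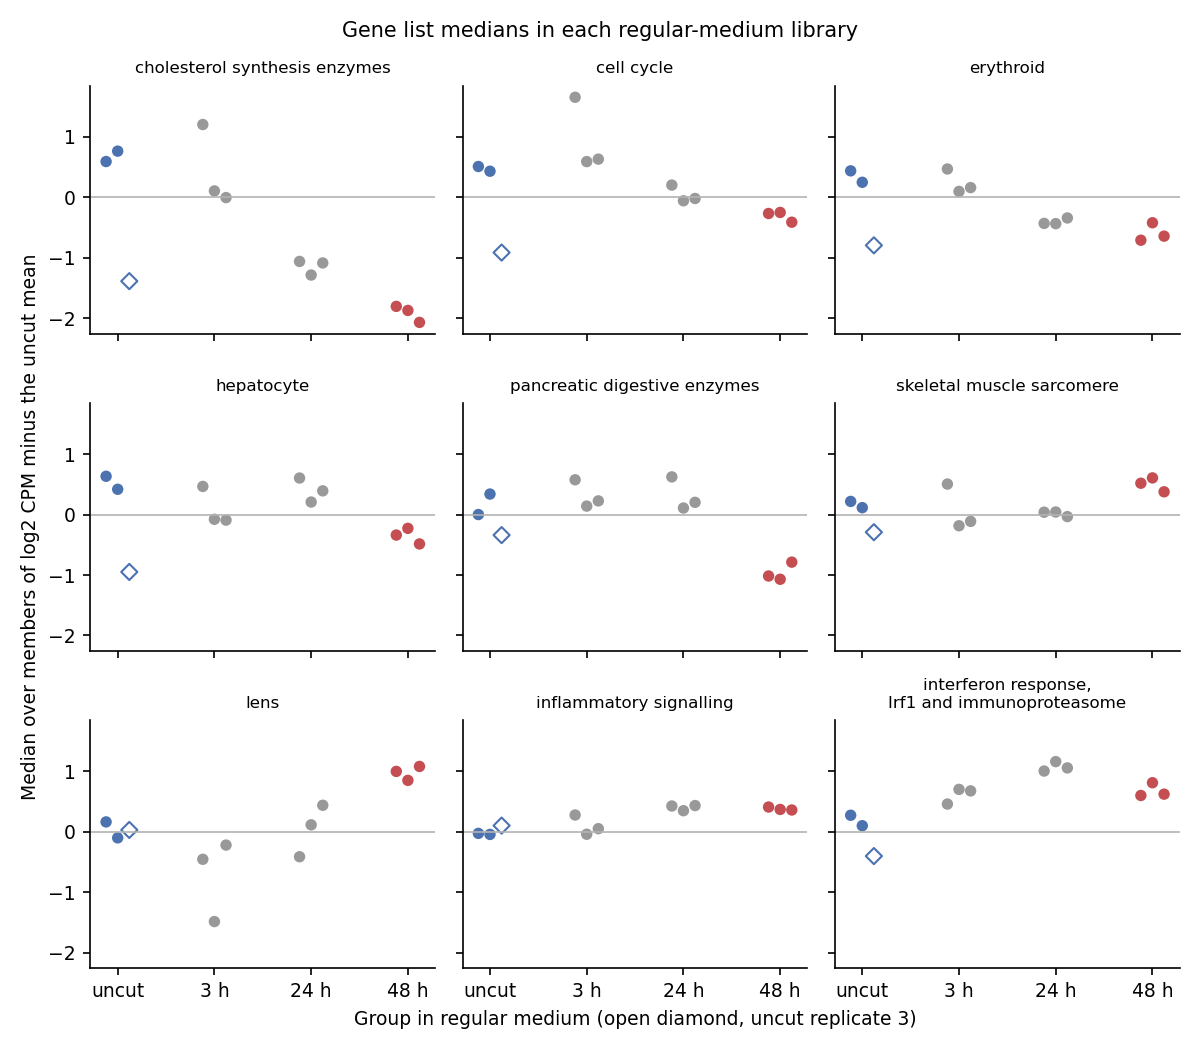
Median over the members of 9 gene lists of log2 CPM minus the uncut mean, in each regular-medium library of the uncut, 3 h, 24 h and 48 h groups (blue, grey, grey and red; open diamond, uncut replicate 3). Uncut replicate 3 lay below the other uncut libraries for the cholesterol, cell cycle, erythroid, hepatocyte, pancreatic, sarcomere and interferon lists. It lay among them for the lens list and just above them for the inflammatory list. All 48 h values of the lens and inflammatory lists were above the uncut ones.

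The calls of proliferation and red cell genes varied with the libraries used, as did those over all genes. Over all genes 7.45% were lower in the fit of all libraries and 14.8% without uncut replicate 3. In the fit of the 6 libraries 176 of 20120 genes were lower, so a list without a call there is not unusual. Of 103 tested cell cycle genes 2 rose, 17 fell and 84 did not pass (median -0.40), and without uncut replicate 3, 0 rose and 52 fell (median -0.73), and in the fit of the 6 libraries 0 rose and 0 fell, and the fewest calls with any 1 library left out were 0, without uncut replicate 2. None of these calls held without each library. The replication clamp pcna stood at 145, 154 and 56.1 CPM uncut and 53.02, 52.3 and 46.0 CPM at 48 h (log2 -1.23 ± 0.29, adjusted p = 0.0065), and the helicase subunit mcm2 at 68.1, 83.8 and 15.06 and 22.3, 22.9 and 17 CPM (log2 -1.42 ± 0.41, adjusted p = 0.021). The proliferation marker mki67 did not pass (log2 -0.19 ± 0.24, adjusted p = 0.65). For mcm2 and mki67 uncut replicate 3 was the lowest of the 6, and for pcna it lay just above the 48 h libraries. The risers cenpf and hmmr (0.84 and 0.64), of the mitotic spindle, were named after their values were seen. Of 35 tested erythroid genes 2 rose, 17 fell and 16 did not pass (median -0.80); without uncut replicate 3, 3 rose and 20 fell (median -1.12), and in the fit of the 6 libraries 0 rose and 0 fell, and the fewest calls with any 1 library left out were 7, without uncut replicate 1. The anion exchanger of red cells, slc4a1a, stood at 54.5, 46.7 and 12.5 CPM uncut and 10.06, 12.98 and 11.8 CPM at 48 h (log2 -1.71 ± 0.29, adjusted p = 0.0003). Its groups overlapped, because uncut replicate 3 lay within the 48 h range. The embryonic globin hbbe1 stood at 132, 105 and 54.7 CPM uncut and 45.6, 44.3 and 39.32 CPM at 48 h (log2 -1.17 ± 0.21, adjusted p = 0.00037), and globin copies may share reads. For hbbe1 uncut replicate 3 lay nearer to the 48 h libraries than to the other uncut libraries, without overlap.

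Lens genes rose while photoreceptor genes fell. Of 56 tested lens genes 18 rose, 0 fell and 38 did not pass (median 0.91), and without uncut replicate 3, 10 rose and 0 fell (median 0.86), and in the fit of the 6 libraries 28 rose and 0 fell, and the fewest calls with any 1 library left out were 4, without uncut replicate 2. The filament gene bfsp2 stood at 30.5, 25.6 and 24.4 CPM uncut and 100.4, 87.5 and 95.6 CPM at 48 h (log2 1.82 ± 0.51, adjusted p = 0.018). Crystallin cryaa stood at 29.8, 13.1 and 7.24 CPM uncut and 54.9, 61.6 and 65.1 CPM at 48 h (log2 1.85 ± 0.52, adjusted p = 0.019). The groups did not overlap for either gene, nor for 53 of the 56 members, against 29.7% of all genes. The list's median relative to the uncut mean was -0.415, 0.113 and 0.436 in the 24 h libraries. Its members thus shift together between libraries of a group and are not separate observations. Of the rises, 2 held without each library, where 2.22% of all genes held as higher. Over all genes 7.09% were higher and 7.45% lower, and 13.7% and 14.8% without uncut replicate 3. The fit of the 6 libraries had 468 of 20120 genes higher and 176 lower. The crystallins crygm2c and crygm1 rose by 1.77 ± 0.44 and 3.03 ± 0.82, although the crygm genes are near-identical copies. Of 65 opsin and phototransduction genes, 3 rose, 22 fell and 40 did not pass (median -0.31), and without uncut replicate 3, 9 rose and 20 fell (median -0.18), and in the fit of the 6 libraries 2 rose and 11 fell, and the fewest calls with any 1 library left out were 11, without uncut replicate 2. Rod transducin gnat1 stood at 66.2, 74.5 and 65.4 CPM uncut and 37.3, 44.1 and 39.64 CPM at 48 h (log2 -0.77 ± 0.18, adjusted p = 0.0043), and the green opsin opn1mw1 at 391, 417 and 212 and 157, 169 and 141 CPM (log2 -1.12 ± 0.24, adjusted p = 0.0026). Both fell without overlap. The retinoid cycle genes rpe65a and rlbp1b rose, rpe65a from 30.6, 15.3 and 20.3 CPM to 80.1, 74.5 and 48.7 CPM (log2 1.62 ± 0.36, adjusted p = 0.0043).

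Pigment genes moved in both directions, beside 7.09% higher and 7.45% lower over all genes. Of 26 tested, 6 rose, 3 fell and 17 did not pass (median 0.14), and without uncut replicate 3, 6 rose and 4 fell (median 0.14), and in the fit of the 6 libraries 4 rose and 0 fell, and the fewest calls with any 1 library left out were 1, without uncut replicate 2. The melanin enzymes dct and tyr rose by 1.33 ± 0.27 and 1.09 ± 0.27, and the melanosome protein pmela from 20.4, 13.7 and 15.4 CPM to 37.1, 40.7 and 36.4 CPM (log2 1.2 ± 0.30, adjusted p = 0.0094). The pteridine genes gch2 and aox5, of yellow pigment cells, fell (-2.15 ± 0.53 and -0.75 ± 0.21), gch2 with overlap. Of 52 neuronal genes 0 rose, 8 fell and 44 did not pass (median -0.18), and without uncut replicate 3, 1 rose and 9 fell (median -0.02), and in the fit of the 6 libraries 0 rose and 1 fell, and the fewest calls with any 1 library left out were 2, without uncut replicate 2. The share of neuronal genes called was near the 14.5% over all genes in either direction, of which 7.45% were lower. Synapsin syn1 stood at 57.9, 55.9 and 49.3 CPM uncut and 37.1, 35.8 and 36.7 CPM at 48 h (log2 -0.57 ± 0.12, adjusted p = 0.0018).

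In the lists of oxidative stress and of protein folding stress, more members fell than rose. Other stress lists did not all share this. Of 49 heat shock and chaperone genes 0 rose and 4 fell, and of 43 hypoxia-responsive genes 4 rose and 2 fell. Of 32 p53 target and apoptosis genes 5 rose and 1 fell. Over all genes 14.5% were called. Of 56 tested oxidative stress genes 2 rose, 19 fell and 35 did not pass (median -0.42), and without uncut replicate 3, 2 rose and 28 fell (median -0.51), and in the fit of the 6 libraries 0 rose and 0 fell, and the fewest calls with any 1 library left out were 1, without uncut replicate 2. The glutathione transferase mgst3b stood at 104, 105 and 66.1 CPM uncut and 53.4, 54.0 and 47.5 CPM at 48 h (log2 -0.82 ± 0.15, adjusted p = 0.00042). Of 60 genes for protein folding stress and amino acid shortage 4 rose, 11 fell and 45 did not pass (median -0.23); without uncut replicate 3, 5 rose and 23 fell (median -0.35), and in the fit of the 6 libraries 0 rose and 1 fell, and the fewest calls with any 1 library left out were 2, without uncut replicate 2. The co-chaperone dnajc3a fell from 26.1, 25.4 and 14.3 CPM to 7.76, 8.59 and 8.72 CPM (log2 -1.39 ± 0.24, adjusted p = 0.00039), whereas the stress factor ddit3 rose from 28.4, 33.9 and 55.2 CPM to 89.0, 78.0 and 102 CPM (log2 1.19 ± 0.22, adjusted p = 0.00073). Neither overlapped. The detoxifying enzyme cyp1a, a target of the aryl hydrocarbon receptor, fell from 671, 783 and 223 CPM to 98.5, 101 and 97.5 CPM (log2 -2.50 ± 0.54, adjusted p = 0.0036). Of 13 tested genes of this receptor and its targets 0 rose, 3 fell and 10 did not pass (median -0.04). Of 94 ribosomal protein genes none passed by edgeR, 3 had an unadjusted p under 0.05, 1 passed by DESeq2 and 0 to 1 by limma, and their median was -0.08.

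Other large rises that held without each library were in genes outside the lists. The receptor kinase grk5 (chr10:2715548-2755378), which silences active receptors, stood at 8.12, 10.5 and 7.62 CPM uncut and 53.1, 62.5 and 57.2 CPM at 48 h (log2 2.72 ± 0.16, adjusted p = 9e-13). The adhesion receptor adgrf8 stood at 26.5, 29.2 and 22.7 CPM uncut and 105, 104 and 85.4 CPM at 48 h (log2 1.91 ± 0.23, adjusted p = 3.8e-06), and mctp2b, a calcium-binding membrane protein, at 18.3, 16.4 and 6.57 and 64.7, 65.6 and 57.5 CPM (log2 2.19 ± 0.25, adjusted p = 3.6e-06). None overlapped, but separate groups were a condition for being picked as a largest rise and add no support here. For each of these genes uncut replicate 3 was the lowest of the 6. The oxoglutarate receptor oxgr1a and the defensin defbl3 rose by 2.66 ± 0.40 and 2.27 ± 0.51.

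Set against the 24 h group, in the same medium and with the same cut, 987 genes were higher (4.91%) and 930 lower (4.62%) at 48 h. This comparison shares the 48 h libraries with the one above, and uncut replicate 3 does not enter its means. The 1917 calls became 557, 1311 and 1056 without 24 h replicates 1, 2 and 3, and 1012, 950 and 783 without 48 h replicates 1, 2 and 3. A fit of the 6 libraries of both groups alone gave 6868. Over all 20120 genes, 244 rises and 224 falls held without each of the 6 libraries in turn. The muscle list had 26 rises and 0 falls of 70, with 16 rises holding without each library. The chain myha stood at 43.0 ± 4.26 CPM at 24 h and 289 ± 35.5 CPM at 48 h (SD, n = 3; log2 2.75 ± 0.25, adjusted p = 3e-08), and myhz2 at 1621 ± 106 and 7051 ± 401 CPM (log2 2.12 ± 0.18, adjusted p = 7.5e-09). Pancreatic enzymes had 22 falls of 34, with 20 holding, and ela3l stood at 974 ± 236 CPM at 24 h and 321 ± 22.1 CPM at 48 h (log2 -1.6 ± 0.23, adjusted p = 4.1e-05). Oxidative stress genes had 24 falls of 56, with 11 holding, and oxidative phosphorylation 36 of 111, with 7 holding. The peptidoglycan recognition gene pglyrp6 stood at 48.6 ± 13.01 CPM at 24 h and 1.42 ± 0.211 CPM at 48 h (log2 -5.09 ± 0.72, adjusted p = 8e-05), and the interferon-induced mxc at 19.2 ± 0.353 and 6.48 ± 0.869 CPM (log2 -1.57 ± 0.34, adjusted p = 0.004). Cholesterol enzymes had 3 falls of 22 between the time points, with a median of -0.62. Inflammatory signalling genes had 1 rise and 3 falls of 54 (median -0.05), so that list was at a similar level at 24 h. The interferon list had 0 rises and 5 falls of 54 (median -0.47). The macrophage list had 0 rises and 9 falls of 41 (median -0.45).

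The response at 48 h was also set against that in glucose, as 48 h minus uncut in each medium, with an F test over the 3 media. It passed for 2929 genes (14.6%), and for 6572 without uncut replicate 3, 1773 without uncut replicate 1, 1744 without uncut replicate 2 and 1781 without 48 h replicate 3. Of the cholesterol enzymes 19 of 22 passed. The rate-limiting enzyme hmgcra went from 136 ± 81.6 CPM uncut to 24.1 ± 1.73 CPM at 48 h in regular medium (SD, n = 3). In 130 mM glucose it went from 80.4 ± 19.5 to 134 ± 4.28 CPM, and in 222 mM from 74.0 ± 4.19 to 76.2 ± 6.50 CPM (adjusted p of the F test = 0.00042). The kinase grk5 went from 8.74 ± 1.53 to 57.6 ± 4.74 CPM in regular medium, from 5.51 ± 0.952 to 11.2 ± 0.374 CPM in 130 mM and from 3.64 ± 0.361 to 15.7 ± 3.22 CPM in 222 mM (adjusted p of the F test = 7.3e-05). Its rise was largest in regular medium. Of the muscle list 8 of 70 passed and of the lens list 0 of 56 by edgeR, where 2 had an unadjusted p under 0.05, 1 passed by DESeq2 and 0 to 1 by limma.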

How the data were processed

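RNA-seq of whole larvae was deposited as a single table for all 36 libraries of 12 groups, 3 libraries each. The authors deposited raw counts per gene and, beside them, FPKM values per gene. Per the submitters' processing notes, HISAT, StringTie and edgeR were used with build GRCz11; which tool counted reads, and with which strand setting, is not given in the sources used here, so overlapping and antisense genes cannot be told apart.

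Groups were taken from the sample labels. The filter kept genes that reached 1 FPKM in 3 or more libraries (20120 of 30221). The deposited counts were tested with edgeR 4.0.16 (R 4.3.3; TMM scaling, robust quasi-likelihood fit, 1 mean per group over all 36 libraries, Benjamini-Hochberg adjustment over all genes tested, threshold 0.05). The common biological coefficient of variation was 0.203. Contrasts were 48 h minus uncut, 48 h minus 24 h, and an F test of the 48 h response between media. The SE is the absolute log2 change divided by the square root of F. FPKM served for the filter, for levels per length, for the limma alternatives and for the minimum level of some named genes. Total counts ran from 47904694 to 67514889 per library. The script was tested on simulated data with known changes.

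Alternatives were RLE scaling, no filter, DESeq2 1.42.0, limma 3.58.1 on log2(FPKM + 0.1) and log2(FPKM + 1), only the libraries compared, a replicate block, each library left out in turn, the libraries apart left out, and the fold criterion of the series text. A fit of 5 libraries, without uncut replicate 3, was added after seeing the data.

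Genes were named by rule: the 12 largest rises and falls that held without each library, did not overlap and reached a mean of 5 FPKM; up to 8 called members per list by p; a set of readouts; the 8 largest rises and falls against 24 h; and the 8 smallest p of the F test. Exceptions are marked in the text, or are list members given there as not passing, such as tpm2, tnnt2a, pmvk, hmgcrb and lbr. The members and the 57 gene lists were chosen with earlier results of these data known. Gene names came from the deposited table, and 3125 symbols were completed from a table of gene IDs. Promoter and protein sequences were not analysed here.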

Additional observations from a re-analysis of the deposited data

Results flagged for a closer look

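The 48 h response, taken as 48 h minus uncut within each medium, differed between regular medium, 130 mM and 222 mM glucose for 2929 genes by edgeR's F test. The 8 smallest adjusted p were taken among genes without a clone name that reached a mean of 5 FPKM in at least 1 group. These 8 genes passed in each of the 6 fits that left out 1 of the regular-medium libraries compared. These were rbm25a (adjusted p = 2.1e-05), arhgap18 (2.4e-05), ece2b (2.4e-05), hif1al (7e-05), grk5 (7.3e-05), cyp3c4 (8.4e-05), pdcd6ip (0.00012) and cpa4 (0.00012). The endothelin-converting enzyme gene ece2b went from 6.68 ± 0.635 to 21.6 ± 2.19 CPM in regular medium, from 9.16 ± 1.75 to 4.70 ± 1.01 CPM in 130 mM and from 9.59 ± 3.48 to 18.3 ± 0.433 CPM in 222 mM. The splicing factor gene rbm25a did not pass in regular medium itself (edgeR, log2 0.11 ± 0.18, adjusted p = 0.73).

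Among the set of readouts, the same test differed for mmp9 (adjusted p = 0.0034), both copies of mmp13a (0.0093 for ENSDARG00000012395 and 0.03 for ENSDARG00000114451), fn1b (0.0055), hmgcra (0.00042), lss (0.0022), prss1 (0.0082), ins (0.0072) and mpeg1 ENSDARG00000043093 (0.043). The readout tnfa was too low to be tested, with at most 0.307 FPKM in the 6 libraries. Values of the readouts junbb, cry5 and fkbp5, and the 48 h change of fn1b, are not given in this text. The gelatinase mmp9 went from 11.52 ± 2.22 to 31.1 ± 22.7 CPM in regular medium, from 15.4 ± 2.94 to 18.7 ± 2.2 CPM in 130 mM and from 51.4 ± 29.0 to 14.7 ± 3.07 CPM in 222 mM. The uncut groups of regular medium and of 222 mM glucose each hold a library that stands apart, and the part of these libraries in the differences was not tested gene by gene.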

How the results depend on the processing

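The calls rested on how the spread was estimated and on the uncut libraries. Against uncut, the 2925 changed genes became 644 with only the libraries compared (468 higher, 176 lower), 7594 without the libraries that stand apart, 1098 by the fold criterion of the series text and 9483 with the 5 libraries that remain without uncut replicate 3, an alternative chosen after seeing the data. Leaving out 1 library gave 976 to 5720. Against 24 h, the 1917 changed genes became 6868 with only the libraries compared, 4838 without the libraries apart and 624 by the fold criterion, and 557 to 1311 with 1 library left out. The F test over media gave 8633 without the libraries apart and 1744 to 6572 with 1 library left out, against 2929. RLE scaling, no filter, limma and DESeq2 stayed within 1.5 times of each count, and no named gene reversed under any of these alternatives. Of the 380 nameable genes, 149 kept their side of the threshold with only the libraries compared, and 110 when a replicate block was added to that fit. Without uncut replicates 1, 2 and 3, 233, 211 and 364 kept it. Without 48 h replicates 1, 2 and 3, 289, 300 and 250 kept it. With RLE scaling 380 kept it, and with DESeq2 377. Several naming rules required or preferred genes that held without each library, so these counts are not independent of the naming.

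The replicate numbers do not establish pairs. The deviations of same-numbered uncut and 48 h libraries correlated at 0.0807, 0.104 and 0.219, and those of 24 h and 48 h libraries at -0.0198, 0.0344 and 0.0781. With the replicate block over all libraries, 2949 genes changed against uncut, 1793 against 24 h, and 2864 passed the F test. With the replicate block and only the libraries compared, 277 changed against uncut (216 higher, 61 lower), 7162 against 24 h, and 3060 passed the F test.

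At 3 libraries a group and a shared spread, changes of low genes such as il1b, lepb or defbl3 rest on few counts, and a call lost on leaving out a library does not show that a gene did not change.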

Other observations

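Some clock and cell survival genes were called, in shares of their lists near the 14.5% over all genes. Of 43 tested clock genes 2 rose, 5 fell and 36 did not pass (median -0.11), and without uncut replicate 3, 5 rose and 8 fell (median 0.05), and in the fit of the 6 libraries 0 rose and 4 fell, and the fewest calls with any 1 library left out were 4, without uncut replicate 1. The activator arntl2 stood at 31.5, 33.1 and 12.01 CPM uncut and 8.34, 8.96 and 8.64 CPM at 48 h (edgeR, log2 -1.56 ± 0.34, adjusted p = 0.0027), and the melatonin enzyme aanat2 at 25.9, 29.7 and 7.16 and 4.84, 4.07 and 3.91 CPM (log2 -2.29 ± 0.48, adjusted p = 0.0026). The repressor per3 stood at 62.2, 68.4 and 217 CPM uncut and 236, 229 and 247 CPM at 48 h (log2 1.03 ± 0.34, adjusted p = 0.041). In all 3 genes uncut replicate 3 lay nearer to the 48 h libraries than to the other uncut libraries. The hour of day at sampling is not given in the sources used here. The readouts per1a (log2 0.24 ± 0.78, adjusted p = 0.88) and per2 (log2 -0.34 ± 0.35, adjusted p = 0.56) did not pass.

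Of 32 p53 target and apoptosis genes 5 rose, 1 fell and 26 did not pass (median 0.20), and without uncut replicate 3, 9 rose and 3 fell (median 0.26), and in the fit of the 6 libraries 0 rose and 0 fell, and the fewest calls with any 1 library left out were 2, without uncut replicate 2. The executioner caspase casp3b stood at 19.4, 17.2 and 10.9 CPM uncut and 31.9, 32.0 and 30.5 CPM at 48 h (log2 0.99 ± 0.18, adjusted p = 0.00044), whereas the cell cycle inhibitor cdkn1a stood at 7.01, 7.22 and 2.84 and 1.93, 1.2 and 2.36 CPM (log2 -1.64 ± 0.36, adjusted p = 0.003). Neither overlapped. The lysosome and autophagy factor tfe3a rose from 4.36, 5.17 and 5.87 CPM to 13.4, 16.3 and 17.1 CPM (log2 1.6 ± 0.30, adjusted p = 0.00068). Of 40 tested lysosome and autophagy genes 3 rose, 1 fell and 36 did not pass, where 14.5% of all genes were called. Of 20 tested goblet and enteroendocrine genes 2 rose, 4 fell and 14 did not pass. The mucin muc5.1 rose from 345, 293 and 196 CPM to 676, 738 and 612 CPM (log2 1.28 ± 0.34, adjusted p = 0.014), while muc5.2 fell from 49.6, 41.6 and 7.87 CPM to 7.42, 8.48 and 4.55 CPM (log2 -2.27 ± 0.48, adjusted p = 0.0026), with uncut replicate 3 within the 48 h range of muc5.2.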
